A study of Sus scrofa with 33 samples.

Results

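The genes described here encode the nuclear subunits of the mitochondrial respiratory chain (complexes I to IV) and of the ATP synthase (complex V), together with a few of their assembly factors. They were taken from the array's annotation as every gene whose single symbol begins with NDUF, UQCR, COX4 to COX8 or ATP5, or is SDHA, SDHB, SDHC or SDHD. Each gene was represented by the probe set whose mean over the 33 arrays was highest. This gave 63 of the 6765 genes on the array: 35 of complex I, 4 of complex II, 2 of complex III, 8 of complex IV and 14 of complex V. The rule itself uses symbols and mean signal and no measured change, but it was chosen with earlier results of these data known. A probe set annotated to ATP5SL under more than 1 identifier was left out, and NDUFA4L2, UQCRC1, UQCRFS1, COX4I1, COX4I2, COX6A2 and COX8A were not analysed here. Of 26 symbols of mitochondrially encoded genes looked for, 0 were found under a single symbol, so every value below is for a nuclear gene.

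RNA came from the free wall of the right ventricle of 11 pigs (Sus scrofa), each biopsied 3 times. In the shunt arm (6 pigs) the biopsies were taken at baseline, after 120 min of pulmonary banding, a narrowing of the right ventricle's outflow meant to induce its failure, and after a further 60 min of banding with a modified Glenn shunt, a connection that leads venous blood to the lung circulation past the right ventricle. In the control arm (5 pigs) they were taken at baseline, after the same 120 min of banding, and after a further 60 min of banding with no shunt. The pigs were randomised to the arms once failure had been established, and each array held the RNA of 1 biopsy of 1 pig. No group without banding was analysed here, so banding and the time since the first biopsy cannot be told apart. Strain, sex and age are not given in the labels.

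Complexes I and II pass electrons from NADH and succinate to ubiquinone, complex III passes them on to cytochrome c, and complex IV passes them to oxygen. Complexes I, III and IV pump protons across the inner mitochondrial membrane, and the ATP synthase uses the returning protons to make ATP. The heart muscle cell is densely filled with mitochondria and depends on this chain for the ATP that drives contraction.

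The values are log2 probe set signals, and changes are differences of log2 signal within a pig. They were fitted with limma over all 33 arrays, and a gene is said to have risen or fallen only where its adjusted p, over 23999 probe sets, was under 0.05. The 63 probe sets were bright: 58 had a mean log2 signal of at least 10, as did 1349 of all probe sets. Bright probe sets as a class moved downwards in these biopsies, so both backgrounds are given below. From earlier work on these values the arrays were grouped into 3 sets: shunt pigs 1 to 4, shunt pigs 5 and 6, and the 5 control pigs. The control spike Dap averaged 3.38, 8.34 and 7.59 in these sets, and the control pigs (6.64 to 8.95) spanned shunt pigs 5 and 6 (8.08 to 8.6). The spike BioB averaged 8.33, 5.96 and 9.35, and its ranges did not overlap (8.01 to 8.54, 5.82 to 6.15 and 8.84 to 10.02). By this grouping no set held both arms, so array set and arm cannot be told apart. The mean of 12 ventricular cardiomyocyte markers lay between 13.64 and 13.97 in every shunt biopsy and between 13.72 and 13.97 in every control biopsy, and no marker was at 0, so the markers of the labelled tissue were high in every biopsy.

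After 120 min of banding nearly all of these genes had a fitted change below zero. Of the 63 genes 14 fell and 0 rose: 10 of the 35 of complex I, 1 of the 4 of complex II, 3 of the 14 of complex V and 0 of complexes III and IV. This was 22.2% of the genes, where 17.4% of all probe sets and 23.1% of the bright probe sets were called lower, so the share of calls was near that of bright probe sets. Of all probe sets 11.6% were called higher. In bulk tissue fewer cells of a type and less RNA per cell cannot be told apart, here and in each result below. The direction was more uniform than the calls. The fitted change was below zero for 62 of the 63 genes, where 47.3% of all probe sets and 70.9% of the bright ones were below zero. The median change of the 63 was -0.133, against 0.01 over all probe sets and -0.075 over the bright ones. In linear terms this median is a change of -8.82%. The genes with no call at 120 min are described by values, since a p above the threshold does not show that they were unchanged.

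**Figure D1:**
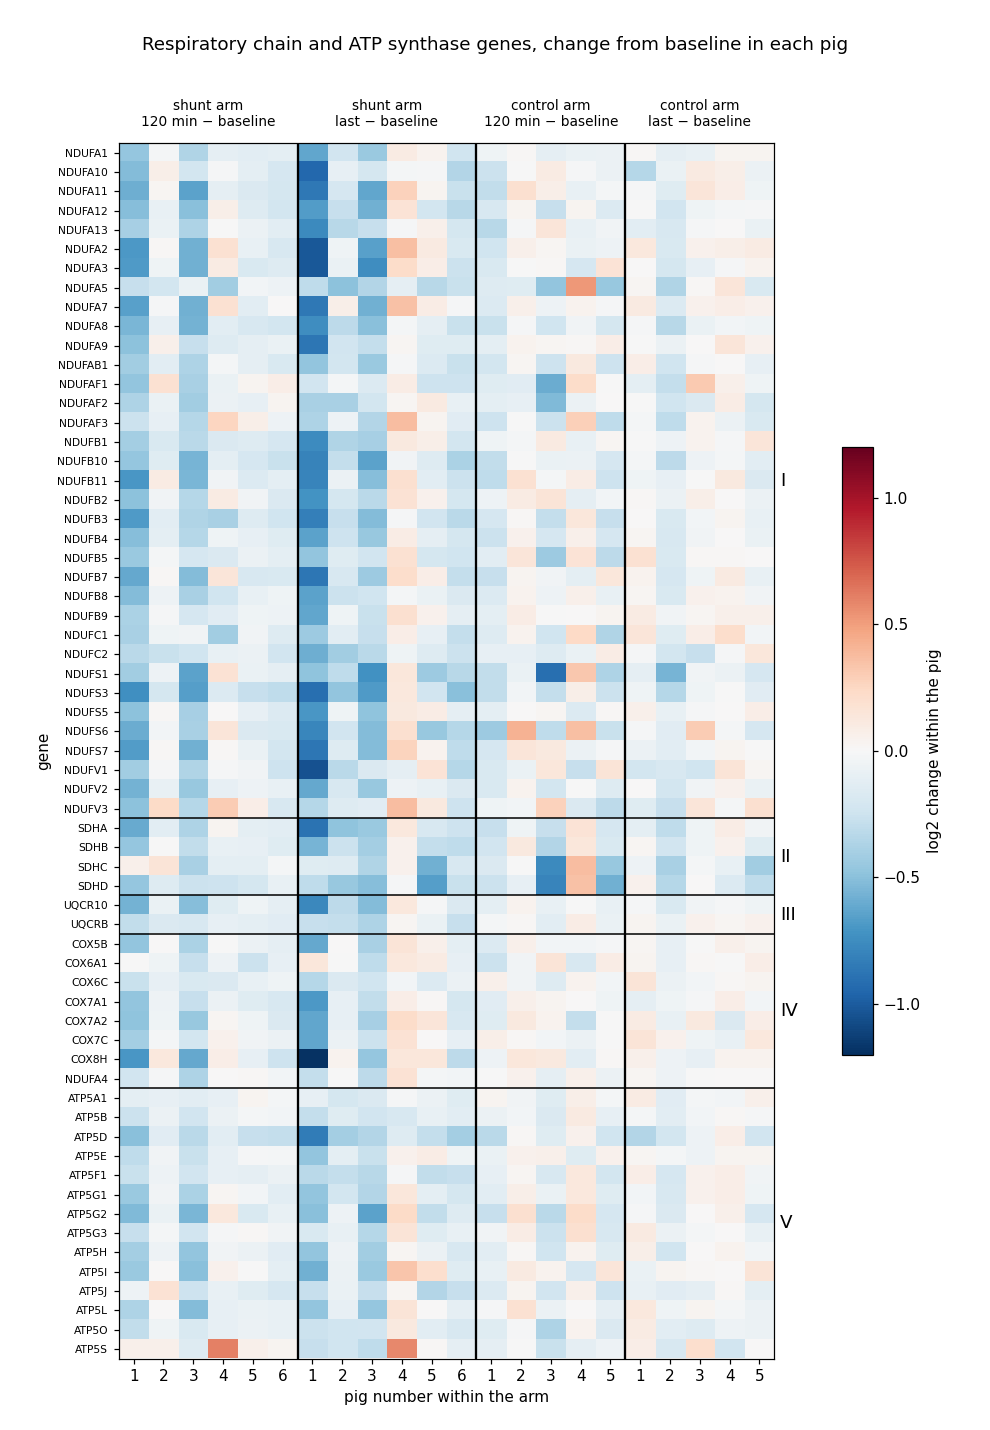
Change from baseline in each pig for the 63 genes (rows, grouped by complex I to V) at 120 min and at the last biopsy (columns, pigs numbered within each arm). Colour is the log2 change within the pig, blue for lower and red for higher. Shunt pigs 1 and 3 are blue over nearly all rows, shunt pig 4 turns red at the last biopsy, and the control pigs are pale at the last biopsy.

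The catalytic core of complex I, which holds the flavin and the iron-sulphur clusters, was measured through 5 genes. NDUFS3, a core subunit of the matrix arm, had the lowest fitted change of the 63 at 120 min. In the shunt arm its log2 signal had a lowest, median and highest value of 11.52, 11.68 and 11.72 at baseline, 10.97, 11.37 and 11.39 at 120 min, and 10.80, 11.16 and 11.65 at the last biopsy. In the control arm it was 11.82, 11.61, 11.67, 11.68 and 11.84 at baseline, 11.53, 11.57, 11.38, 11.75 and 11.58 at 120 min, and 11.77, 11.27, 11.62, 11.68 and 11.70 at the last biopsy (pigs 1 to 5). All shunt biopsies at 120 min lay below all shunt biopsies at baseline, whereas the control biopsies of the same times overlapped. NDUFS3 fell by 18.0% at 120 min over the 11 pigs (log2 change -0.286, standard error 0.071, lower in 10 of 11 pigs, limma adjusted p = 0.00342). The other probe sets of NDUFS3 had -0.227 and -0.201 and did not pass (limma adjusted p = 0.139 and 0.135). NDUFV2, an iron-sulphur subunit beside the NADH site, also fell (-0.17, standard error 0.055, limma adjusted p = 0.0212), a call that was lost when the probe sets of a gene were averaged (limma adjusted p = 0.155). NDUFS1, the large iron-sulphur subunit, had a change of -0.224 that did not pass (limma adjusted p = 0.0781), with control pig 3 at -0.909 and control pig 4 at 0.32.

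Around the core lie the accessory subunits, which stabilise the complex. NDUFA8 and NDUFB10, both on the membrane arm, were the 2 genes of the 63 that were lower at 120 min in every pig. NDUFA8 had shunt values of 12.31, 12.42 and 12.52 (lowest, median, highest) at baseline and 11.81, 12.23 and 12.33 at 120 min. Its control values were 12.55, 12.32, 12.28, 12.44 and 12.51 at baseline and 12.29, 12.30, 12.04, 12.40 and 12.30 at 120 min. The times overlapped in both arms, but each pig moved down, with changes from -0.563 to -0.096 in shunt pigs and from -0.265 to -0.016 in control pigs. The fitted change was -0.229 (standard error 0.06, limma adjusted p = 0.0054) for NDUFA8 and -0.218 (standard error 0.06, limma adjusted p = 0.00735) for NDUFB10.

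On the membrane arm 3 further subunits fell at 120 min: NDUFB3 by 0.233, NDUFB4 by 0.166 and NDUFC2 by 0.143 on the log2 scale (limma adjusted p between 0.00674 and 0.0294). On the matrix arm NDUFA12 fell (-0.18), and so did NDUFAB1 (-0.164), the acyl carrier protein that complex I shares with mitochondrial fatty acid synthesis. Of the 3 assembly factors under the NDUF names, which help build complex I and are not part of it, NDUFAF2 fell (-0.165, limma adjusted p = 0.047). That call was lost in 4 settings that kept all pigs, with a limma adjusted p of 0.0541 to 0.168, within each array set, and in all but 4 of the 11 fits with a pig left out. NDUFV3, an accessory subunit of the matrix arm, had the smallest fitted change of complex I at 120 min (-0.065, limma adjusted p = 0.554).

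Complex II is the succinate dehydrogenase that the respiratory chain shares with the citric acid cycle, and all 4 of its genes were measured. SDHD, which anchors the enzyme in the membrane with SDHC, fell at 120 min (-0.253, standard error 0.089, limma adjusted p = 0.0347). SDHA, the flavoprotein that oxidises succinate, had -0.177 and missed the threshold (limma adjusted p = 0.0505). SDHB, the iron-sulphur protein, had -0.146 and SDHC had -0.132 (limma adjusted p = 0.0685 and 0.264). In the control arm all 4 genes were lower in pigs 1, 3 and 5 and all 4 were higher in pig 4. Their mean change at 120 min was -0.369, -0.032, -0.327, -0.105, -0.134 and -0.099 in shunt pigs 1 to 6, and -0.235, -0.008, -0.544, 0.256 and -0.352 in control pigs 1 to 5. The control pigs thus covered a wider range than the shunt pigs, with pig 4 at its top and pig 3 at its foot. A measure of RNA quality moved in the same control pigs. The 3' minus 5' signal of GAPDH, which grows when RNA is broken or copied short, changed at 120 min by 0.3, -0.164, 0.362, -0.332 and 0.347 in control pigs 1 to 5. In shunt pigs 1 to 6 it changed by 0.04, -0.054, 0.045, -0.129, 0.039 and -0.045. Its part in the succinate dehydrogenase values was not tested.

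Complexes III and IV gave no call at 120 min. UQCRB and UQCR10, small accessory subunits of complex III, had -0.104 and -0.156 (limma adjusted p = 0.0744 and 0.0615), and both passed an unadjusted p under 0.05. Over the 8 genes of complex IV the changes lay between -0.133 and -0.063, and 3 of 8 passed an unadjusted p under 0.05 in limma, as did 39.6% of all probe sets. The ends of that range were COX7A2, the subunit form found in most tissues, and NDUFA4, a subunit that was once assigned to complex I. COX7A1, the form typical of heart and skeletal muscle, had -0.118 (limma adjusted p = 0.0964), and the difference between these forms was not tested.

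In the ATP synthase the stalks carried the calls at 120 min. ATP5D, the delta subunit of the central stalk that turns inside the catalytic head, had shunt values of 11.52, 11.62 and 11.69 (lowest, median, highest) at baseline, 11.12, 11.41 and 11.49 at 120 min, and 10.78, 11.22 and 11.46 at the last biopsy. Its control values were 11.86, 11.59, 11.49, 11.33 and 11.79 at baseline, 11.53, 11.60, 11.35, 11.38 and 11.56 at 120 min, and 11.50, 11.37, 11.44, 11.41 and 11.57 at the last biopsy. In the shunt arm no biopsy at 120 min or later reached the lowest baseline value, and in the control arm the times overlapped. ATP5D fell at 120 min (-0.208, standard error 0.054, lower in 9 of 11 pigs, limma adjusted p = 0.00524). ATP5H and ATP5O, the d subunit and the oligomycin sensitivity protein of the peripheral stalk that holds the head still, fell by 0.15 and 0.133 on the log2 scale. Both calls were lost when the deposited values were quantile normalised again (limma adjusted p = 0.12 and 0.0789).

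The catalytic head itself gave no call at 120 min: ATP5A1 (alpha) had -0.048 and ATP5B (beta) had -0.085 (limma adjusted p = 0.381 and 0.11). The 3 genes ATP5G1, ATP5G2 and ATP5G3 encode the same mature c subunit of the proton-driven ring, and had -0.106, -0.153 and -0.071, none past the threshold. ATP5S, a factor associated with the synthase and not a subunit, was the 1 gene of the 63 with a fitted change above zero (0.01, limma adjusted p = 0.93). Its per-pig changes were lower in 6 of 11 pigs and reached 0.605 in shunt pig 4.

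The count at 120 min rested unevenly on the pigs. The mean change over the 63 genes was -0.433, -0.04, -0.37, -0.038, -0.094 and -0.128 in shunt pigs 1 to 6, and -0.162, 0.032, -0.153, 0.032 and -0.117 in control pigs 1 to 5. The GAPDH 3' minus 5' change had the opposite sign to the mean of the 63 genes in 3 of 6 shunt pigs and in 5 of 5 control pigs, and its part was not tested. The number of genes lower than baseline was 61 of 63 in shunt pig 1 and 63 of 63 in shunt pig 3, but 24 and 27 of 63 in control pigs 2 and 4. The count of 14 became 5 without shunt pig 1, 5 without shunt pig 3, 9 without shunt pig 6, 8 without control pig 1, 8 without control pig 3 and 22 without control pig 4. NDUFS3, NDUFA8, NDUFB10, NDUFB3 and ATP5D were called whichever pig was left out. By array set, shunt pigs 1 to 4 averaged -0.22 ± 0.211 over the 63 genes, shunt pigs 5 and 6 averaged -0.111 ± 0.024, and the control pigs averaged -0.074 ± 0.098 (SD, n = 4, 2 and 5). Fitted within 1 set, 0 of the 63 were called in any of the 3 sets, where 9.87%, 1.89% and 7.46% of all probe sets were called.

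Between the arms, which had the same treatment up to this point, the difference of the response at 120 min passed the test for none of the 63 genes. It was called for 0 of 63 genes by limma and for 0% of all probe sets. At an unadjusted p under 0.05 it was 0 of 63 genes and 6.9% of all probe sets. The median difference was -0.134 (shunt minus control), against -0.002 over all probe sets and -0.025 over the bright ones. Of the 63 differences 55 were below zero, where 50.4% of all probe sets were. The share of bright probe sets below zero is not given here. The 63 genes averaged -0.184 ± 0.173 in shunt pigs, against -0.074 ± 0.098 in control pigs (SD, n = 6 and 5). At baseline, before any treatment, the arms differed for 0 of 63 genes (0.0208% of all probe sets), and NDUFV3 and NDUFAF2 alone were lower in the shunt arm at an unadjusted p under 0.05 (-0.233 and -0.282, limma adjusted p = 0.31 and 0.345), as were 5.67% of all probe sets.

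**Figure D2:**
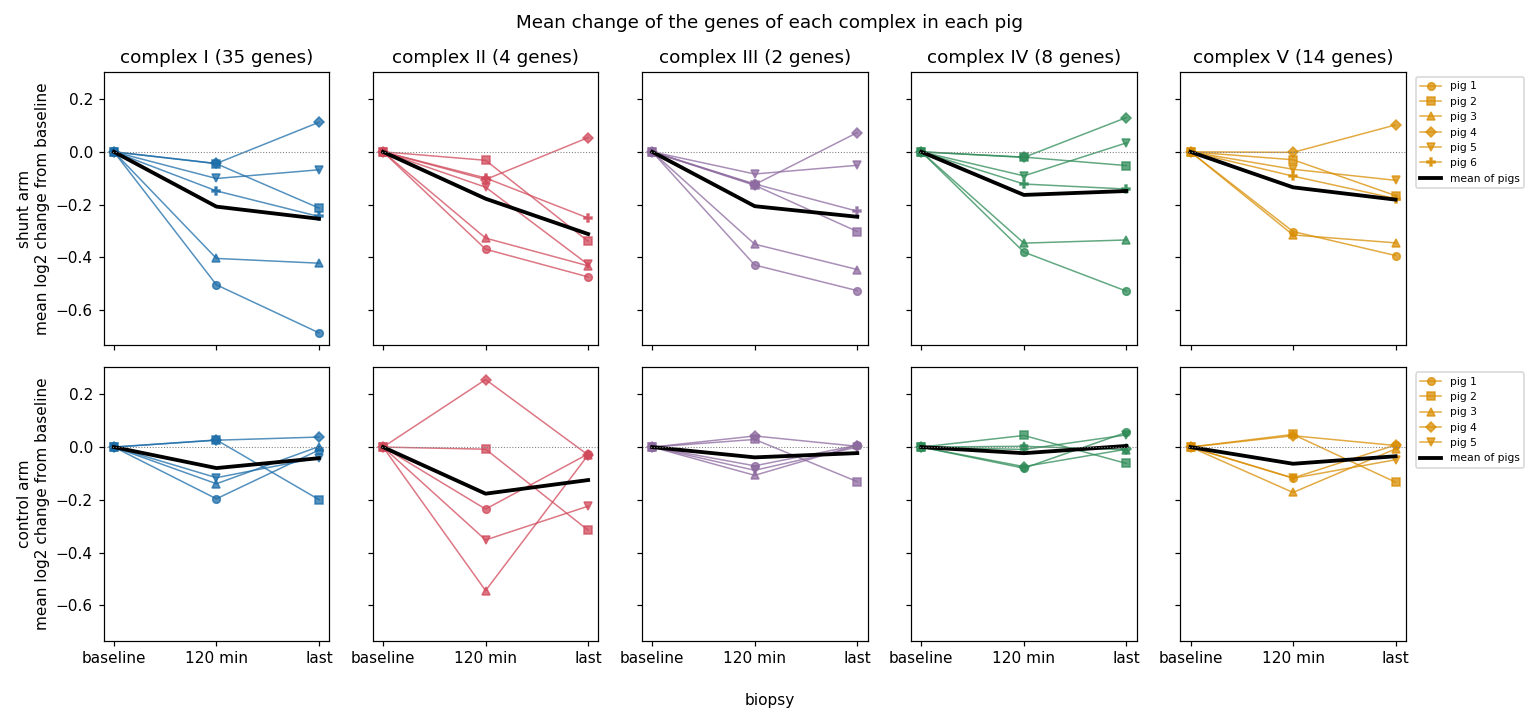
Mean log2 change from baseline of the genes of each complex (y axis) at the 3 biopsies (x axis), with 1 thin line per pig and the mean of the pigs in black, for the shunt arm (top) and the control arm (bottom). At the last biopsy the shunt means lie between -0.312 for complex II and -0.148 for complex IV, and the control means between -0.125 for complex II and 0.004 for complex IV.

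Between 120 min and the last biopsy the genes moved little on average and in no common direction over the pigs. In the shunt arm 0 of 63 genes were called by limma, and in the control arm 0 of 63, with 0% of all probe sets called in either. At an unadjusted p under 0.05 both arms again had 0 of 63, where 8.94% of all probe sets passed for shunt pigs and 3.07% for control pigs. The median change of the 63 was -0.035 in shunt pigs, against 0.034 in control pigs. The mean over the 63 genes was -0.15, -0.153, -0.024, 0.145, 0.007 and -0.088 in shunt pigs 1 to 6, and 0.164, -0.204, 0.149, -0.013 and 0.076 in control pigs 1 to 5. Pigs of both arms went up and down, and the arms overlapped over most of their range. The test of the difference between the arms called 0 of 63 genes (0% of all probe sets; at an unadjusted p under 0.05, 0 of 63 genes and 3.07% of all probe sets), with a median difference of -0.069. Complex II had the widest spread in the control arm, where the mean of its 4 genes changed by 0.209, -0.307, 0.514, -0.286 and 0.127 in pigs 1 to 5. The GAPDH 3' minus 5' signal changed by -0.286, 0.292, -0.452, 0.315 and -0.136 in the same pigs. Its sign was opposite to that of the mean of the 63 genes in 1 of 6 shunt pigs and in 5 of 5 control pigs, and its part was not tested. This interval shares the 120 min arrays with the one before it, so the counts of both intervals are not independent.

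Over the whole course, the last biopsy against baseline, the fitted change of the shunt arm was below zero for 63 of 63 genes, where 49.9% of all probe sets and 65.7% of the bright ones were. Of the 63 genes 37 fell and 0 rose (13.3% of all probe sets were called higher). The 37 were 58.7% of the genes, where 19.2% of all probe sets and 33% of the bright probe sets were called lower. The median change was -0.236, against 0.001 over all probe sets and -0.107 over the bright ones. By complex 24 of 35 genes of complex I fell, 3 of 4 of complex II, 2 of 2 of complex III, 2 of 8 of complex IV and 6 of 14 of complex V. The median was lowest for complex II (-0.323), followed by complex I (-0.261), complex III (-0.246), complex V (-0.171) and complex IV (-0.153). Changes spread less at high signal. The middle 50% of all probe sets ran from -0.261 to 0.105 at a signal near 11.25 and from -0.156 to 0.001 near 13.75. In the baseline biopsy of shunt pig 1 complex I averaged 11.488 and complex IV 13.006. The part of signal in the order of the complexes was not tested. The baseline biopsies are shared with the comparison at 120 min, so the counts of these 2 comparisons are not independent. By count 12 genes fell in both, 2 at 120 min alone (NDUFAF2 and ATP5O) and 25 over the whole course of the shunt arm alone.

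**Figure D3:**
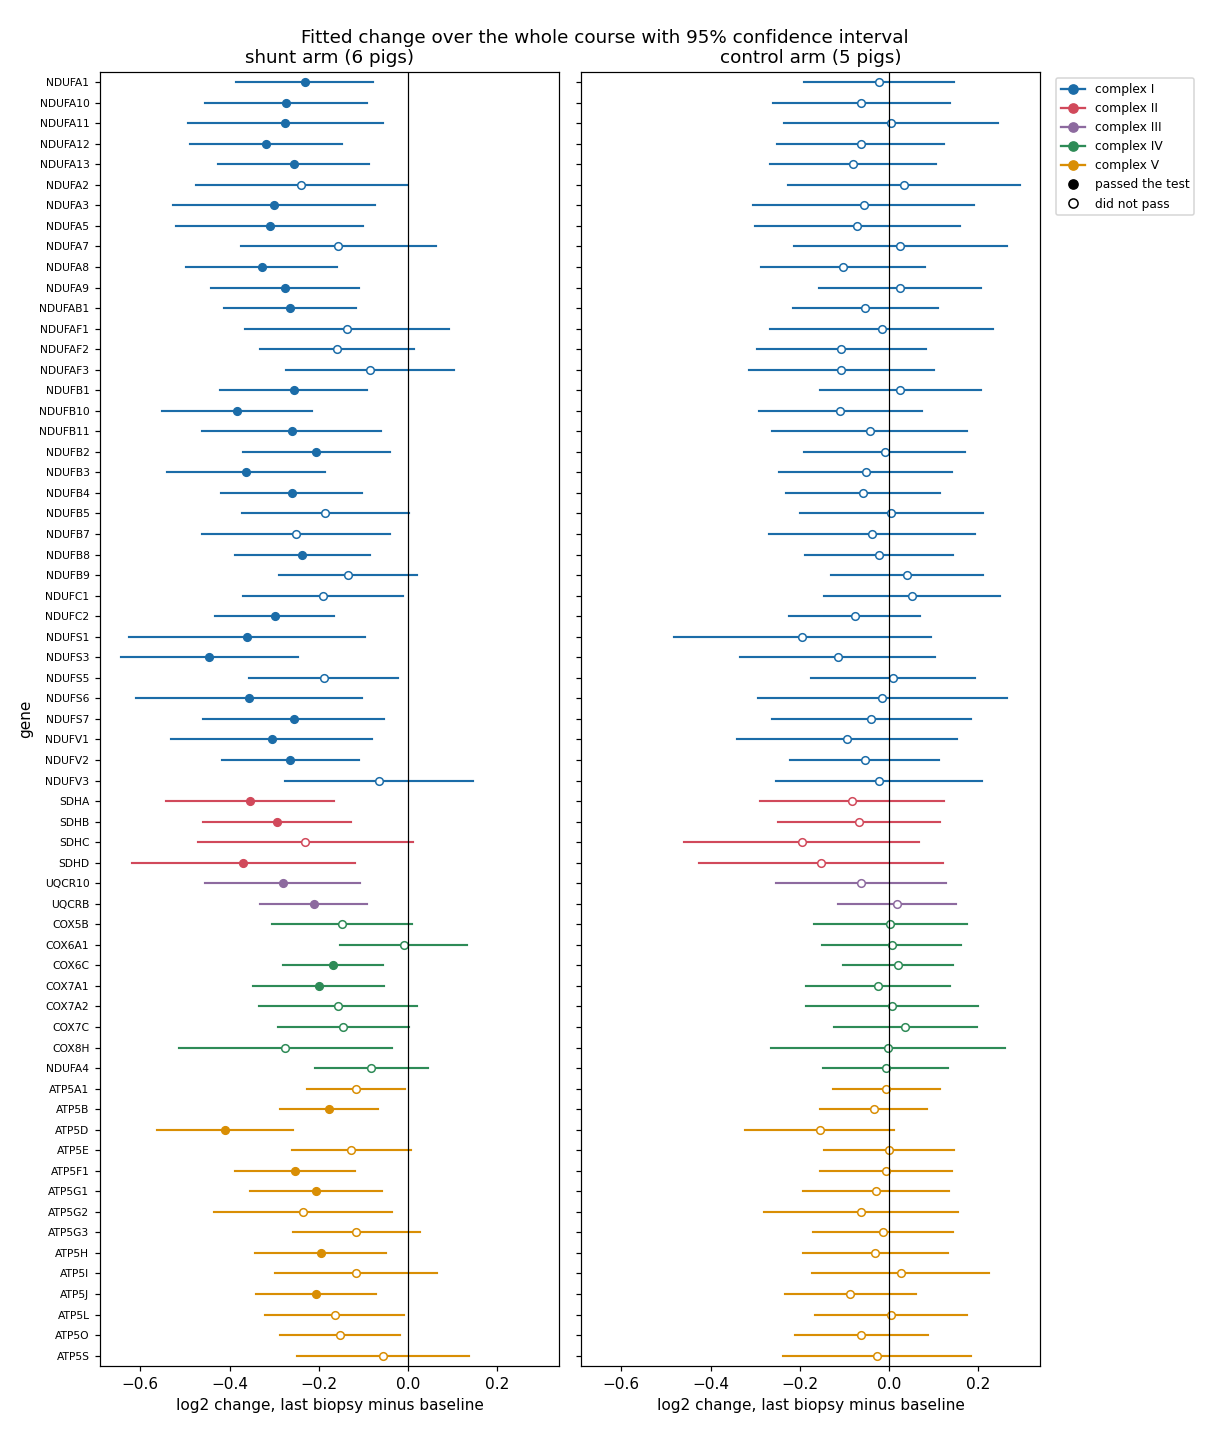
Fitted log2 change from baseline to the last biopsy (x axis) for each of the 63 genes (rows), in the shunt arm (left, 6 pigs) and the control arm (right, 5 pigs). Points are limma estimates and bars 95% confidence intervals. Filled points passed the test: 37 in the shunt arm, all below zero, and 0 in the control arm.

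All 5 core genes of complex I fell over the course of the shunt arm. NDUFS3 fell by 26.5% (log2 change -0.445, standard error 0.096, limma adjusted p = 0.000839). Its change was -0.907, -0.476, -0.677, 0.122, -0.229 and -0.5 in shunt pigs 1 to 6, against -0.05, -0.339, -0.047, -0.001 and -0.14 in control pigs 1 to 5. Of the shunt pigs 5 of 6 were lower than baseline, pig 4 was higher, and the arms overlapped. The other probe sets of NDUFS3 had -0.365 and -0.301 in the shunt arm and did not pass (limma adjusted p = 0.0722 and 0.0919). NDUFS1 had -0.36 and NDUFV1, which binds NADH and the flavin, had -0.305 (standard errors 0.128 and 0.109). NDUFV2 had -0.264 and was lower in 6 of 6 pigs. NDUFV1 and NDUFS7 are named after the values were seen, to complete the core. NDUFS7, the iron-sulphur subunit next to the ubiquinone site, had -0.256, and its call was lost when each array was centred on its median (limma adjusted p = 0.0653).

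On the membrane arm of complex I 14 of 19 subunits fell. NDUFB10 was lower in 6 of 6 shunt pigs, with changes from -0.801 in pig 1 to -0.043 in pig 4, and fell by 0.384 on the log2 scale (standard error 0.081, limma adjusted p = 0.000665). NDUFB3 (-0.363), NDUFA8 (-0.328), NDUFC2 (-0.299), NDUFA10 (-0.274) and NDUFB8 (-0.237) were also lower in 6 of 6 pigs. NDUFA13, NDUFB4, NDUFB1 and NDUFA1 fell by 0.232 to 0.261 on the log2 scale. On the matrix arm NDUFS6 (-0.357), NDUFA12 (-0.318), NDUFA5 (-0.309) and NDUFA9 (-0.275) fell, as did the acyl carrier protein NDUFAB1 (-0.264). NDUFS6 lost its call when the probe sets of a gene were averaged (limma adjusted p = 0.0874). None of the 3 assembly factors was called (0 of 3), with changes between -0.159 and -0.086.

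SDHA, SDHB and SDHD fell over the course of the shunt arm. SDHA had shunt values of 12.31, 12.47 and 12.59 (lowest, median, highest) at baseline and 11.71, 12.05 and 12.55 at the last biopsy. Its control values were 12.64, 12.41, 12.58, 12.37 and 12.59 at baseline and 12.52, 12.11, 12.53, 12.45 and 12.55 at the last biopsy. Of the shunt pigs 5 of 6 were lower than at baseline and pig 4 was higher, and the biopsies of both times overlapped in each arm. The fitted change was -0.354 for SDHA (standard error 0.091, limma adjusted p = 0.00388), -0.293 for SDHB (limma adjusted p = 0.00646) and -0.369 for SDHD (limma adjusted p = 0.0206). SDHC, the other membrane anchor, had -0.23 (standard error 0.116) and did not pass (limma adjusted p = 0.142). In complex III both UQCRB (-0.211) and UQCR10 (-0.281) fell, each lower in 5 of 6 pigs.

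Complex IV had the median nearest to zero. COX6C, a small structural subunit, was lower in 6 of 6 shunt pigs and fell by 0.168 on the log2 scale (standard error 0.054, limma adjusted p = 0.0188). COX7A1, the heart and muscle form, fell (-0.2, limma adjusted p = 0.0336), with pig 1 at -0.692 and pigs 4 and 5 at 0.081 and 0.01. Its call was lost when each array was centred on its median (limma adjusted p = 0.0539). Its counterpart of most tissues, COX7A2, had -0.158 (limma adjusted p = 0.174). COX6A1 had -0.01 and NDUFA4 -0.082, neither past the threshold (limma adjusted p = 0.937 and 0.351). COX8H, named after the values were seen because its spread between shunt pigs was the widest of the 63, had -1.186, 0.039, -0.465, 0.138, 0.137 and -0.311 in shunt pigs 1 to 6 and no call (-0.275, limma adjusted p = 0.074).

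In the ATP synthase ATP5D had the largest change. It was -0.841, -0.412, -0.355, -0.159, -0.282 and -0.407 in shunt pigs 1 to 6, against -0.352, -0.219, -0.059, 0.078 and -0.227 in control pigs 1 to 5. All 6 shunt pigs were lower than baseline, as were 4 of 5 control pigs, and the arms overlapped. ATP5D fell by 24.7% in the shunt arm (log2 change -0.409, standard error 0.074, limma adjusted p = 0.000128). Of the peripheral stalk ATP5F1, its b subunit (-0.253, lower in 6 of 6 pigs), ATP5J, its F6 subunit (-0.206), and ATP5H (-0.196) fell. The call of ATP5J was lost when the probe sets of a gene were averaged (limma adjusted p = 0.0998), and that of ATP5H when each array was centred on its median (limma adjusted p = 0.0639). ATP5B, the catalytic beta subunit, fell by 0.178 on the log2 scale and was lower in 6 of 6 pigs, with changes from -0.282 to -0.092 (limma adjusted p = 0.0121). ATP5A1 was also lower in 6 of 6 pigs but did not pass (-0.117, limma adjusted p = 0.0983). Of the c subunit genes ATP5G1 fell (-0.207), and ATP5G2 (-0.236) and ATP5G3 (-0.116) did not pass.

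**Figure D4:**
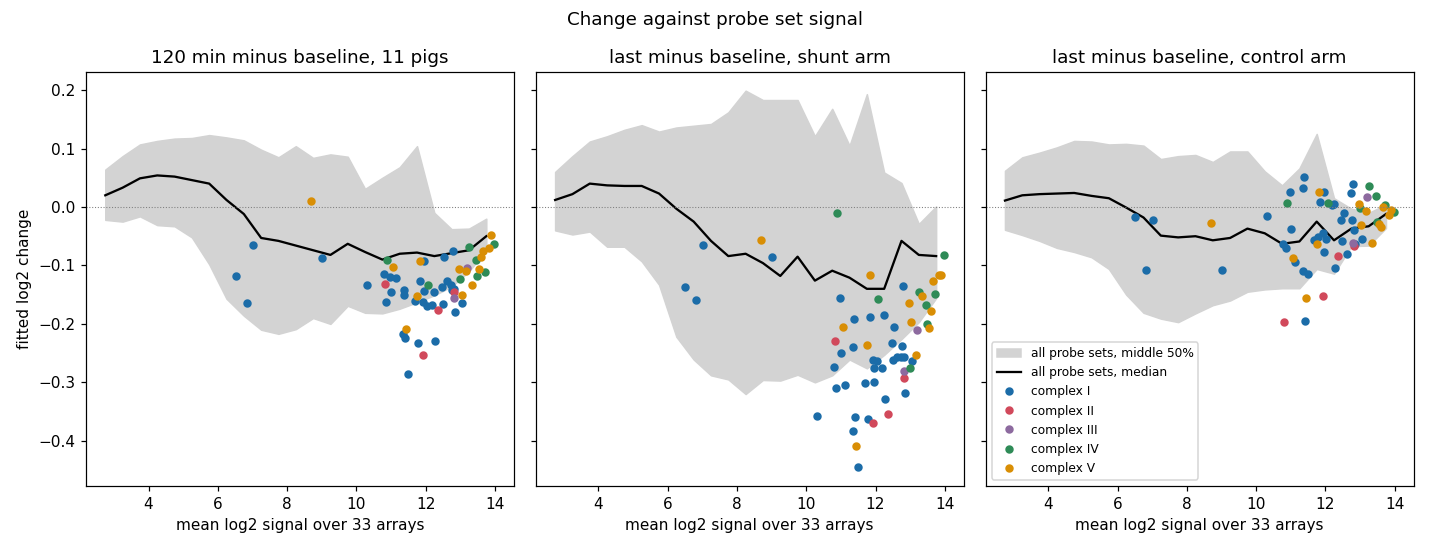
Fitted log2 change (y axis) against the mean log2 signal of the probe set over 33 arrays (x axis), for 120 min minus baseline in 11 pigs (left) and for last minus baseline in the shunt arm (middle) and the control arm (right). Points are the 63 genes coloured by complex, the line is the median and the grey band the middle 50% of all probe sets in bins of signal. Of the 63 genes 58 have a signal of at least 10, where the line itself lies below zero.

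In the control arm the same interval gave 0 calls among the 63 genes by limma, where 8.79% of all probe sets were called and 5.29% were called lower. At an unadjusted p under 0.05 it was 0 of 63 genes and 21.5% of all probe sets. The median change was -0.029, against -0.005 over all probe sets and -0.043 over the bright ones. Of the 63 genes 46 were below zero, where 51.5% of all probe sets were, and the share of bright ones is not given here. The largest departures were in complex II, with a median of -0.118, and SDHC had -0.196 (standard error 0.128, limma adjusted p = 0.41). For NDUFS3 the control change was -0.115 (95% confidence interval -0.333 to 0.102), and for ATP5D it was -0.156 (-0.323 to 0.011). Both intervals include the fitted change of the same gene at 120 min.

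The arms were compared directly through the difference of their whole-course changes. That test called 0 of 63 genes by limma (0.00417% of all probe sets), with 11 of 63 at an unadjusted p under 0.05, all lower in the shunt arm, where 6.1% of all probe sets were lower at that level. The median difference was -0.203, and 62 of 63 differences were below zero, where 52.4% of all probe sets and 62.3% of the bright ones were. UQCRB had the smallest p (-0.228, 95% confidence interval -0.407 to -0.049, limma adjusted p = 0.28), followed by ATP5F1 (-0.246) and NDUFA9 (-0.3). For NDUFS3 the difference was -0.329 (-0.624 to -0.034, limma adjusted p = 0.351). Calls in the shunt arm beside none in the control arm therefore do not show that the arms differed. Over the banding before any shunt, when both arms were treated alike, the median difference was already -0.134. From then to the last biopsy it was -0.069. The whole-course difference thus includes a difference from before the shunt and cannot be read as a response to the shunt.

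The count of the shunt arm over the whole course also depended on the pigs. The mean change over the 63 genes was -0.582, -0.193, -0.395, 0.107, -0.086 and -0.216 in shunt pigs 1 to 6, and 0.001, -0.172, -0.004, 0.019 and -0.041 in control pigs 1 to 5. Shunt pig 4 stood above baseline on most genes, with 17 of 63 lower, and control pig 2 stood below it, with 61 of 63 lower. Over the whole course the GAPDH 3' minus 5' change was opposite in sign to this mean in 4 of 6 shunt pigs and 3 of 5 control pigs. Its part was not tested. The 63 genes averaged -0.228 ± 0.24 in shunt pigs, against -0.039 ± 0.077 in control pigs (SD, n = 6 and 5). The count of 37 became 15 without shunt pig 1, 19 without shunt pig 3 and 24 without shunt pig 6, and 50 without shunt pig 4. Whichever pig was left out, 13 genes were called, among them NDUFS3, NDUFB10, ATP5D, SDHA, UQCRB and ATP5B. By array set, shunt pigs 1 to 4 averaged -0.266 ± 0.295 and shunt pigs 5 and 6 averaged -0.151 ± 0.092 (SD, n = 4 and 2). Fitted within shunt pigs 1 to 4 alone, 5 of 63 were called (NDUFS3, NDUFB10, NDUFA8, NDUFC2 and ATP5D), and within shunt pigs 5 and 6 alone 0 of 63, where 20% and 4.88% of all probe sets were called.

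Markers of the cells in the biopsy were followed as well. The 12 cardiomyocyte markers averaged a whole-course change of -0.162 ± 0.102 in shunt pigs, against -0.029 ± 0.054 in control pigs (SD, n = 6 and 5). The median of the 12 fitted changes was -0.075 over the shunt arm's course and -0.04 at 120 min, nearer to zero than the mean, with PLN lowest at -0.769 and -0.438. Of the 12, PLN (phospholamban) and TNNT2 (troponin T) fell over the shunt arm's course (2 of 12). Over that course 19.2% of all probe sets and 33% of the bright ones were called lower. In the control arm 0 of 12 were called, where 5.29% of all probe sets were called lower. The difference of the whole-course changes between the arms was called for 0 of 12. Over the whole course the mean of the 63 genes lay below that of the markers in 4 of 6 shunt pigs (mean gap -0.065 ± 0.148) and in 2 of 5 control pigs (-0.01 ± 0.03). At 120 min they lay below the markers in 6 of 6 shunt pigs (-0.088 ± 0.099) and in 3 of 5 control pigs (-0.03 ± 0.058). Of 7 neutrophil and monocyte markers 5 rose over the shunt arm's course, where 13.3% of all probe sets were called higher. Over the control arm's course 1 of 7 rose, where 8.79% of all probe sets were called in either direction. The difference of the whole-course changes between the arms was called for 0 of the 7. In shunt pigs these 7 averaged a log2 signal of 5.40 ± 0.175 at baseline, 6.08 ± 0.492 at 120 min and 6.38 ± 0.559 at the last biopsy. In control pigs the averages were 5.38 ± 0.086, 5.43 ± 0.119 and 5.71 ± 0.135 at the same times. Of 6 smooth muscle markers 3 rose over the shunt arm's course and 1 over the control arm's, beside the same shares of all probe sets. Here too the difference between the arms was called for 0 of the 6. Of 8 endothelial, 6 fibroblast, 3 adipocyte and 3 erythrocyte markers, at most 2 of a list were called lower and at most 1 higher at 120 min and over each arm's course, and none was at 0. These counts do not show that the cell types were stable. The erythrocyte markers had a median of 0.683 over the shunt arm's course and -0.85 over the control arm's, with 0 of 3 called. Their difference between the arms had a median of 1.537 (0.133 to 1.716) and was called for 0 of 3. Among all probe sets 17.4% were called lower at 120 min, 19.2% over the shunt arm's course and 5.29% over the control arm's course. The part of these markers in the changes of the 63 genes was not tested.

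**Figure D5:**
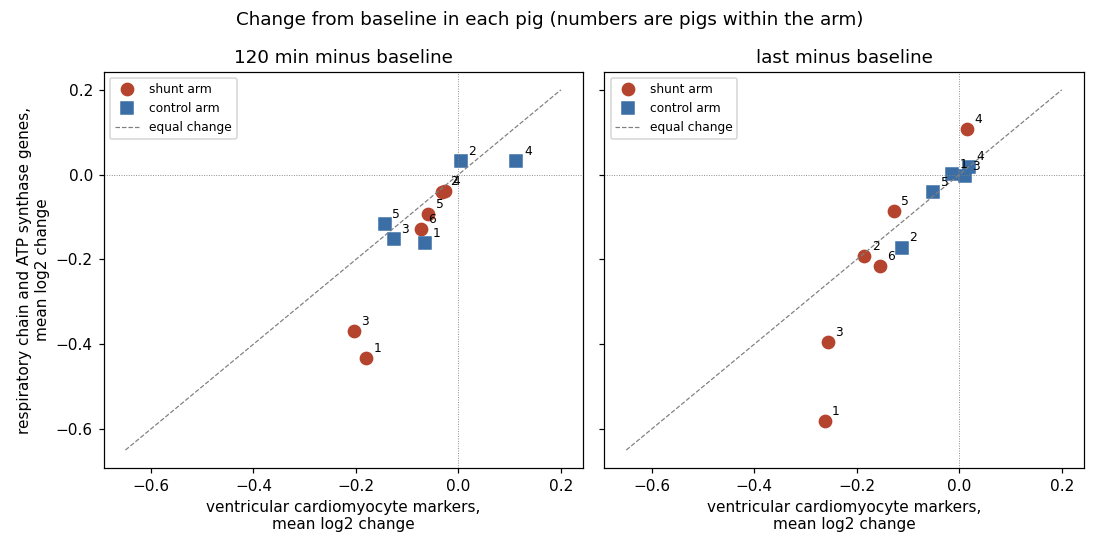
Mean log2 change of the 63 genes (y axis) against the mean log2 change of 12 ventricular cardiomyocyte markers (x axis) in each pig, at 120 min (left) and at the last biopsy (right). Circles are shunt pigs and squares control pigs, numbered within the arm, and the dashed line marks equal change. Shunt pigs 1 and 3 lie lowest on both axes, with -0.582 and -0.395 for the 63 genes at the last biopsy.

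Genes that build or serve the chain were followed as lists. Of 15 assembly factors outside the NDUF names, 6 fell at 120 min and 10 over the shunt arm's course, with 0 rising in either and 0 of 15 called over the control arm's course. Of all probe sets 17.4%, 19.2% and 5.29% were called lower in these comparisons, and of the bright ones 23.1% at 120 min and 33% over the shunt arm's course. SCO2, a copper chaperone of cytochrome oxidase, fell by 0.412 on the log2 scale at 120 min and fell by 0.501 over the shunt arm's course (limma adjusted p = 1.16e-05 and 3.52e-05). BCS1L, which inserts the Rieske protein into complex III, also fell (-0.232 at 120 min and -0.376 over the shunt arm's course). So did TACO1, a translation activator for a mitochondrially encoded cytochrome oxidase subunit (-0.256 and -0.444), and ATPAF1, an ATP synthase assembly factor (-0.262 and -0.442). The median of the list was -0.139 at 120 min and -0.304 over the shunt arm's course, against -0.059 over the control arm's course.

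Of 8 genes of electron carriers and their synthesis (17.4% of all probe sets were called lower at 120 min), COQ9 of ubiquinone synthesis fell at 120 min (-0.249). COQ9 (-0.423), COQ6 (-0.248) and both subunits of the electron transfer flavoprotein, ETFA (-0.252) and ETFB (-0.31), fell over the shunt arm's course (4 of 8). In that comparison 19.2% of all probe sets and 33% of the bright ones were called lower. Over the control arm's course 0 of 8 were called, where 5.29% of all probe sets were called lower. Of 21 genes of mitochondrial import and structure, 8 fell at 120 min, where 17.4% of all probe sets and 23.1% of the bright ones did. The smallest p was that of TIMM22 of the inner membrane translocase (-0.368), followed by CHCHD3 of the cristae junction (-0.213). Over the shunt arm's course 7 of 21 fell, against 19.2% of all probe sets and 33% of the bright ones, and TIMM8A rose (0.375). Over the control arm's course 0 of 21 were called, against 5.29% of all probe sets called lower.

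The lists did not all move down. Among 12 genes of ATP export and energy buffering, SLC25A5, an ADP/ATP carrier of the inner membrane, rose at 120 min (0.398), over the shunt arm's course (0.836) and over the control arm's course (0.433, limma adjusted p = 0.0314). ATPIF1, the inhibitor of the ATP synthase, fell at 120 min (-0.151). VDAC3, a channel of the outer membrane, and CKM, muscle creatine kinase, fell over the shunt arm's course (-0.309 and -0.215), and UCP2 rose (0.319). At 120 min 1 of the 12 fell and 1 rose, where 17.4% and 11.6% of all probe sets were called lower and higher. Over the shunt arm's course 2 fell and 2 rose, where 19.2% and 13.3% were called lower and higher. In the control arm 1 of 12 was called, where 8.79% of all probe sets were called. Of 8 regulators of mitochondrial biogenesis and hypoxia 0 fell and 3 rose at 120 min, where 11.6% of all probe sets were called higher: MYC (2.3), PPRC1, a coactivator of the PGC-1 family (0.849), and HIF1A (0.527). Over the shunt arm's course these 3 (2.216, 1.415 and 0.939) and EPAS1 (0.267) rose, where 13.3% of all probe sets were called higher. The rest of the list had no call at 120 min or over the shunt arm's course. PPARGC1A had -0.115 and -0.486, TFAM -0.061 and 0.051, TFB1M -0.015 and -0.125, and PPARA 0.21 and 0.198. MYC (2.197) and PPRC1 (0.695) rose over the control arm's course, where 0 of the 63 genes and 8.79% of all probe sets were called.

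Where a gene had more than 1 probe set, the other sets were read as a check on the choice. The 14 such genes had 17 other probe sets. At 120 min 14 of the 17 were below zero, with a median of -0.092, and 2 were called lower, those of SDHB (-0.385, limma adjusted p = 2.09e-05) and NDUFB3 (-0.125, limma adjusted p = 0.0443). Over the shunt arm's course 15 of 17 were below zero (median -0.206) and 3 were called lower. Over the control arm's course 12 of 17 were below zero (median -0.029) and 0 were called. The other set of SDHB thus passed at 120 min where the one used had -0.146 and did not.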

How the data were processed

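The deposited values are log2 probe set signals from the Affymetrix porcine array, made by the authors with RMA, per the submitters' processing notes, with software and settings not given in the sources used here. They ran from 2.21 to 15.2 and were used as deposited. Of 24123 probe sets, 124 controls were left out. Symbols came from the platform annotation; 63 of 63 genes matched RefSeq by Entrez identifier. Positions and sequences were not analysed here.

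Changes were fitted in R 4.3.3 with limma 3.58.1 (lmFit, eBayes) on 33 arrays, with pig as a fixed block and arm-specific terms for the 120 min and last biopsies (18 residual degrees of freedom). The labels give the same pig at each time, and same-pig arrays correlated after removal of group means (median r = 0.395, lowest 0.081, against -0.052 between pigs). Baseline arms were compared on the baseline arrays alone. P-values were Benjamini-Hochberg adjusted over 23999 probe sets at 0.05. The script was tested on simulated data. The number of arrays limits the precision. GAPDH 3' minus 5' is the mean over 3 probe set pairs.

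The genes and lists were chosen with earlier results of these data known. Named are the genes past the threshold (at most 30 with the smallest p per comparison, and NDUFS7, NDUFV1 and COX8H besides), the highest signal and the extreme 120 min changes of each complex, a fixed panel, and at most 4 called genes per list. PPARGC1A, TFAM, TFB1M and PPARA of the biogenesis list are named as well, without a call. Alternatives were no replicate block, median centring, quantile normalisation, the dimmest 30% left out, an intensity trend, other probe set rules, each array set, and each pig left out.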

Additional observations from a re-analysis of the deposited data

Results flagged for a closer look

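Of 101 groups of pigs examined, 7 held a value that stood far from the rest of its group, and chance gives about 1 in 20. Shunt pig 1 accounted for 4 of them at the last biopsy, with a change from baseline of -0.942 for NDUFA10, -0.869 for NDUFA9, -0.643 for NDUFB8 and -0.841 for ATP5D, each far below the other shunt pigs. Shunt pig 4 stood far above the other shunt pigs for ATP5F1, at -0.011. In the control arm pig 3 stood far below the others for NDUFAF2 at 120 min, at -0.529, and pig 2 for the mean of complex III at the last biopsy, at -0.131. What set these pigs apart was not tested.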

How the results depend on the processing

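The median change of the 63 genes kept its direction in each comparison under each alternative tried, apart from those whose range over the pigs left out crossed zero (arms at baseline, -0.049 to 0.001; control arm whole course, -0.049 to 0.001). It lay between -0.147 and -0.099 at 120 min, and between -0.298 and -0.154 over the shunt arm's course, with 1 pig left out. The counts of calls moved more. At 120 min the 14 calls became 5 with no replicate block, 0 within shunt pigs 1 to 4, 0 within shunt pigs 5 and 6, 0 within the control pigs, and 5 to 22 with 1 pig left out. Over the shunt arm's course the 37 calls became 21 with no replicate block, 5 within shunt pigs 1 to 4, 0 within shunt pigs 5 and 6, and 15 to 50 with 1 pig left out. Sets and left-out pigs reduce the samples in the fit. The other settings left 15 to 19 and 31 to 46 calls. The other 7 comparisons had 0 calls under each alternative. Brightness limits what can be read: probe sets as bright as these moved down as a class.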
